A study of Mus musculus with 131 samples.

Results

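Formative pluripotency genes are switched on when epiblast cells leave the naive state of the early blastocyst and become able to respond to signals for the germ layers. The set described here has 9 members, taken by symbol from the 13927 genes of the deposited expression table: the transcription factor genes Otx2, Pou3f1, Lef1, Sall2, Zic2, Zic5, Sox3 and Sox4, and Fgf5, which encodes a secreted growth factor. Their transcripts were followed in single cells of reconstructed mouse blastocysts, and CpG methylation was read around their transcription starts in cultured cells.

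The study injected embryonic stem cells (ESCs) into host embryos of the strain C57BL/6J, and 131 samples were listed. At embryonic day 4.0 (E4.0), 40 blastocyst cells labelled with an Actin-GFP transgene and 55 labelled with an Actin-RFP transgene were picked one by one and sequenced. The design text states, for E7.5 embryos, that ESCs of the Actin-RFP2 line were put into eight-cell hosts carrying Actin-GFP, so RFP is read here as the injected cells and GFP as the host. Whole-genome bisulfite sequencing, which reads methylated cytosines as unconverted, was done on wild-type mouse embryonic fibroblasts (MEF) at p2, on ESCs with the Gjb2 35delG mutation at p7 and on Actin-RFP2 ESCs at p10. All of these were C57BL/6J, each bisulfite group was 1 library, and each ESC type was 1 line. The 9 RFPpos, 8 GFPpos and 9 RFPpos-GFPpos cells, the E7.5 embryo and the tissue amplicons were not analysed here.

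No label names the embryo a cell came from, so each group of cells counts as 1 sample and no test between groups was possible. GFP cells had 2.0 to 8.32 M reads (median 5.61 M) and RFP cells 0.518 to 9.56 M (median 5.58 M). A median of 5209 genes had a read in a GFP cell and 4527 in an RFP cell. RFP cells carried most epiblast markers, as 10 of 12 were at least 1 higher on the log2 scale, against 25% of all genes. Zfp42 and Nanog fell short, at -0.12 and -0.47 on that scale. All 14 measured trophectoderm markers and 13 of 14 primitive endoderm markers were at least 1 lower, against 21.9% of all genes. The summed level of the trophectoderm list had a median of 8215 CPM (reads scaled to 1e6 per cell) among GFP cells, against 58.9 CPM among RFP cells, with one RFP cell at 3575 CPM. Origin of the cells and lineage therefore cannot be told apart in any comparison of RFP with GFP cells. Over 10% of reads came from mitochondrial genes in 1 GFP cell (cell 27) and 4 RFP cells (6, 14, 41 and 44).

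In the embryo, Otx2 is a homeodomain factor that helps move cells out of naive pluripotency and redirects Pou5f1 (Oct4) to new enhancers. Fgf5 is the classical marker of the epiblast after implantation, and Fgf signalling through Erk drives the same transition. Lef1 is a nuclear partner of beta-catenin in Wnt signalling. Pou3f1 (Oct6), the zinc finger factors of the Zic and Sall families, and the Sox factors Sox3 and Sox4 are also known for roles in the nervous system later on.

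The promoters below are the 250 bases before each start, read 5′ to 3′ in the direction of the gene from RefSeq on build GRCm38.p6. Capitals mark every CG, the dinucleotide whose methylation is reported further on. They are shown because these promoters differ in CG content and, at Sall2 and Zic5, because the region around them differed in methylation between libraries. The Otx2 promoter lies at chr14:48667645-48667894 on the minus strand, Fgf5 at chr5:98253934-98254183 on the plus strand, and Zic5 at chr14:122465659-122465908 on the minus strand. Sall2 has an outer start with the promoter at chr14:52328671-52328920 and an inner one at chr14:52316324-52316573, both on the minus strand.
Otx2: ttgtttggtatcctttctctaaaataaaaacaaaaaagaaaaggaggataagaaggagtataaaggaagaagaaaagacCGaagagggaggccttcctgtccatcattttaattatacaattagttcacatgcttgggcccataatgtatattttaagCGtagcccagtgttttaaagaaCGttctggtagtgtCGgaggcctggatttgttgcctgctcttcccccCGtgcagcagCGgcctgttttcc
Fgf5: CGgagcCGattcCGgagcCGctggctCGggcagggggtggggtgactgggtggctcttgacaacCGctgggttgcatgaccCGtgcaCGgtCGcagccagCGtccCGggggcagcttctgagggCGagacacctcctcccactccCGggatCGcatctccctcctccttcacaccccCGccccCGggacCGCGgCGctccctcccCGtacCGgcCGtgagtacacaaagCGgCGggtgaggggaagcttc
Zic5: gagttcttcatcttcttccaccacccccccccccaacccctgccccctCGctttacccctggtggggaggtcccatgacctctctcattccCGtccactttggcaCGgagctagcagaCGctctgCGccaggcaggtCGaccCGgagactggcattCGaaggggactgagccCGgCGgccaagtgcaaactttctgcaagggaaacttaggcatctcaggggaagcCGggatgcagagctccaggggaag
Sall2 outer: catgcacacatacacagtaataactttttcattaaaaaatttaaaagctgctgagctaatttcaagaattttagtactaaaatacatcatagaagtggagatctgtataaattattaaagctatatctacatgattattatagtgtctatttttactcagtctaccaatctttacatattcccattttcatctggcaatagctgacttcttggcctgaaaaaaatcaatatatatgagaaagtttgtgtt
Sall2 inner: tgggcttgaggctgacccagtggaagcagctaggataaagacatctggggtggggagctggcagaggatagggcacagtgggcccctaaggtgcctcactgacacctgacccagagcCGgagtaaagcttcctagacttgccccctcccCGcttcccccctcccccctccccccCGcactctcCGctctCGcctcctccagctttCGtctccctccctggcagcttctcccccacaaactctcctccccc

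The Fgf5 stretch holds 24 CG, Zic5 11, Otx2 6, the inner Sall2 start 6 and the outer Sall2 start 0. Over the full 300 bases given for each start (250 before and 50 after), the median of all 32851 promoters was 7 CG. Fgf5 had 29, more than 87.1% of them, and the outer Sall2 start had 1, more than 5.43%. Of the 9 members, 6 had entries there, with 13 starts in all, and Pou3f1, Zic2 and Sox3 are named only. A few short words were searched on both strands of the 300 bases: TAATCC, bound by Otx proteins, CTTTGA, bound by Tcf and Lef proteins, the TATA box TATAAA, and the octamer ATGCAAAT. TAATCC stood at 1 Otx2 start (48665109) and at no other member start, against 7.06% of all promoters. CTTTGA stood, in 2 copies, at 1 Lef1 start (131156294) alone, against 16% of all. TATAAA stood in the 300 bases of the Otx2, Fgf5 and outer Sall2 starts shown and of the same Lef1 start, against 13.6%. The Fgf5 copy is not within the printed stretch. Words were counted anywhere in the 300 bases, so a hit need not lie where a TATA box works. The octamer stood at none, against 1.74%.

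Otx2 was the member seen in most RFP cells. Its level ran from 0 through a median of 36.4 to 705 CPM (cell 2), and 13 of the 55 RFP cells had no Otx2 read. At 10 CPM or more, the level used here for presence, it was found in 31 RFP cells, a share of 56.4% with an exact 95% binomial interval of 42.3% to 69.7%. RFP cells fell into a broad range with no single level, and 22 of them were at 100 CPM or more. In GFP cells the median was 0 and only cell 1 passed, at 95.1 CPM. Summed over cells, Otx2 stood at 107 CPM in RFP cells (exact Poisson interval 106 to 108) and 1.06 CPM in GFP cells (0.934 to 1.21). The log2 ratio of RFP over GFP, taken on CPM + 1, was 5.71, and 6.68 without GFP cell 1, which held 95% of the GFP reads. Both kinds of interval describe counting error alone, because reads are PCR copies and cells may share an embryo.

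**Figure D1:**
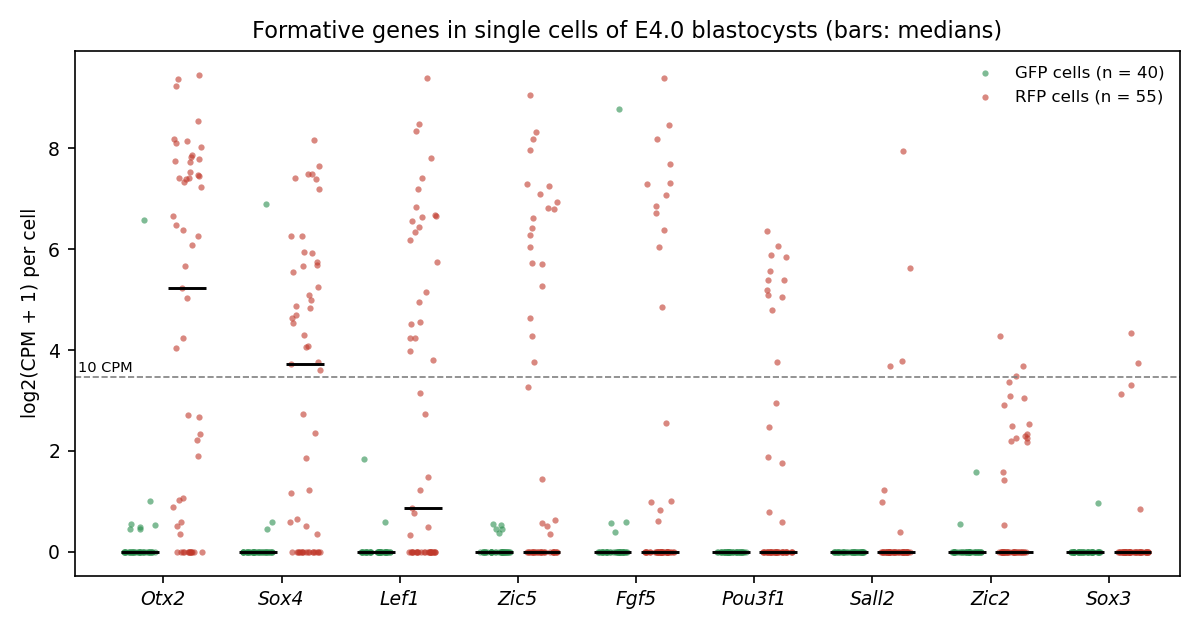
Level of each gene in every cell as log2(CPM + 1), with 40 GFP cells in green and 55 RFP cells in red; black bars are group medians and the dashed line marks 10 CPM. Genes run from the most to the least widely present in RFP cells, from Otx2 in 31 cells to Sox3 in 2, and 2 GFP cells account for every green point above the line.

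Fgf5, the secreted ligand of the set, had another shape. It was absent from 38 of 55 RFP cells, so the median was 0, but it reached 673 CPM in RFP cell 35. In 12 RFP cells (21.8%, interval 11.8% to 35.0%) it was at 10 CPM or more, and 9 of these were above 100 CPM. Fgf5 was therefore mostly high in the cells that passed, as was Otx2, with 22 of its 31 cells at 100 CPM or more. What set Fgf5 apart from Otx2 was the larger number of RFP cells without a read. Summed, it stood at 40.9 CPM in RFP cells and 13.6 CPM in GFP cells, a log2 ratio of 1.52. GFP cell 31, at 441 CPM, held 99.7% of the GFP reads, and without it the GFP level was 0.0369 CPM and the log2 ratio 5.34.

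Pou3f1, the POU factor of the set, had no read in any of the 40 GFP cells. In RFP cells it ran from 0 through a median of 0 to 81.6 CPM (cell 35), and 12 cells were at 10 CPM or more, as for Fgf5. None of them reached 100 CPM. The summed RFP level was 10.1 CPM (9.75 to 10.5), at least 753-fold higher than 3 reads over the whole GFP group would give, and the log2 ratio was 3.47.

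Lef1 was at 0 to 669 CPM in RFP cells, with a median of 0.837 CPM, and 23 cells (41.8%, interval 28.7% to 55.9%) were at 10 CPM or more. Its highest cell was RFP cell 41, in which 10.8% of reads were mitochondrial. In GFP cells the highest was 2.60 CPM, so the 23 RFP cells lay above every GFP cell. Summed levels were 52.8 CPM in RFP and 0.0716 CPM (16 reads) in GFP cells, a log2 ratio of 5.65.

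Among the zinc finger genes, Zic5 stood out from Zic2 although they are neighbours on chromosome 14, with 9725 bp between them. Zic5 ran from 0 through a median of 0 to 534 CPM (cell 30) in RFP cells, and 20 cells (36.4%, interval 23.8% to 50.4%) were at 10 CPM or more. Zic2 had a read in 18 RFP cells but its highest was 18.5 CPM (cell 24), and 3 cells (5.45%, interval 1.14% to 15.1%) passed. Only 1 of these 3 cells also held Zic5 at 10 CPM. No GFP cell passed for either gene, and their highest GFP values were 0.470 CPM for Zic5 and 1.98 CPM for Zic2. The log2 ratio was 5.64 for Zic5 and 1.60 for Zic2.

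Sall2 rested on few cells. It was at 0 in 48 of 55 RFP cells and at 10 CPM or more in 4 (7.27%, interval 2.02% to 17.6%), and no GFP cell had a read. RFP cell 36, at 246 CPM, held 78.2% of all Sall2 reads. The summed RFP level was 7.56 CPM, and 1.69 CPM without that cell, with log2 ratios of 3.10 and 1.43. The first of these levels is at least 564-fold higher than 3 reads over the GFP group.

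Sox4 was nearly as widespread as Otx2. RFP cells ran from 0 through a median of 12.2 to 285 CPM (cell 47), with 29 cells (52.7%, interval 38.8% to 66.3%) at 10 CPM or more. Among GFP cells, cell 1 alone passed, at 119 CPM, and it held 98.6% of the GFP reads. The log2 ratio was 4.09 with that cell and 5.26 without it. The Sox4 gene overlaps the gene Gm46405 in RefSeq. With the strand setting of the counting not given in the sources used here, reads of the pair cannot be told apart. Sox3 was scarce: 5 RFP cells had a read, the highest was 19.3 CPM (cell 9), and 2 cells (3.64%, interval 0.443% to 12.5%) passed. Its summed levels were 0.919 CPM in RFP cells and 2 reads in all GFP cells, a ratio of 102.7 with a counting interval of 28.2 to 852. Both GFP reads came from cell 27 and may be the ends of a single pair, in which case the interval is too narrow.

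Of the 9 genes, 8 were at least 1 higher in RFP cells on the log2(CPM + 1) scale, against 25% of all 13927 genes, and none was at least 1 lower, against 21.9%. Sox3 was the exception, at 0.93. The median log2 ratio of the 9 genes was 3.47 and that of all genes 0.08. With a pseudocount of 10 CPM, or with the mean of log2(CPM + 1) over cells, 6 genes were at least 1 higher and Sall2, Zic2 and Sox3 fell short. With a pseudocount of 0.1 CPM all 9 passed. The set was chosen with earlier results of these data known. Pou3f1 and Sall2 had no GFP read, and Lef1, Zic2, Zic5 and Sox3 had 2 to 16 GFP reads. Such genes may have passed the filter of the deposited table through RFP cells alone. The counts of the 9 beside the shares of all genes are thus a description and no test.

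The 2 GFP cells that held a member at 10 CPM, cells 1 and 31, carried trophectoderm keratins like other GFP cells. Krt8 was at 1558 CPM and Krt18 at 3895 CPM in cell 1, and at 1291 and 1957 CPM in cell 31. The medians of all GFP cells were 2354 and 4145 CPM, and the Krt8 median of RFP cells was 2.34 CPM. Cell 1 also had 312 CPM of Fgf4, an epiblast growth factor gene, whereas cell 31 had none. Tdgf1, another epiblast marker, was at only 1.68 CPM in cell 1 and 1.45 CPM in cell 31. Whether each tube held a single cell was not tested.

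Ranked by the share of RFP cells at 10 CPM or more, the order was Otx2, Sox4, Lef1, Zic5, Fgf5 and Pou3f1 together, Sall2, Zic2 and Sox3. The binomial intervals of every pair of neighbours overlapped. Those of Otx2 and Fgf5 did not, nor did those of Lef1 and Sall2. Longer transcripts give more reads, and transcript lengths were not used here, so part of the order can come from length, which was not tested.

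Counting cells that passed for one neighbour and not for the other shows how far the order nests. Otx2 was present without Sox4 in 9 cells and Sox4 without Otx2 in 7. Sox4 without Lef1 was seen in 17 cells and Lef1 without Sox4 in 11. Zic5 without Fgf5 was seen in 11 cells and Fgf5 without Zic5 in 3, the most one-sided step among the first 5 genes. Fgf5 and Pou3f1 were each present without the other in 6 cells. The steps thus did not form a strict ladder in which each gene is seen only with the one before it.

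The level chosen for presence moved some places. At 1 CPM the share of Zic2 was 30.9%, above Pou3f1 (29.1%) and Fgf5 (25.5%), because most of its cells lay between 1 and 10 CPM. At 50 CPM Zic5 (29.1%) stood before Lef1 (27.3%) and Sox4 (23.6%), while Pou3f1 dropped to 7.27% and Fgf5 stayed at 20.0%. Otx2 was first at 1, 5, 10 and 50 CPM, at 1 read, and after each cell was thinned to 500000 reads.

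**Figure D2:**
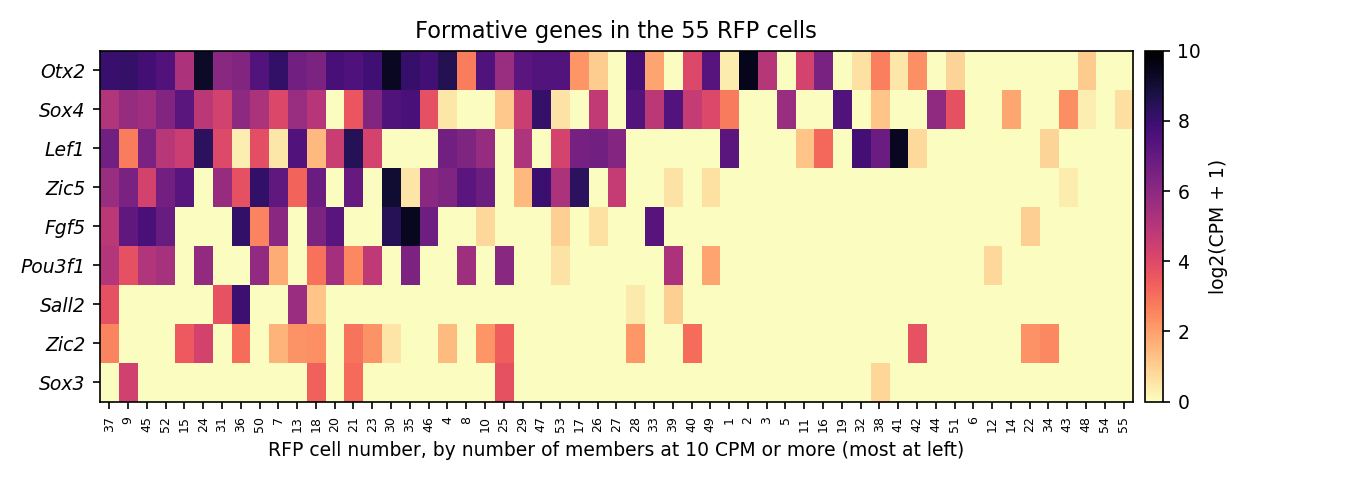
Level of the 9 genes (rows, log2(CPM + 1) in colour) in each of the 55 RFP cells (columns, numbered as labelled), with cells that hold most of the genes at 10 CPM at the left. Cell 37 at the far left holds 7 of the genes, and the 9 cells at the far right hold none.

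Cells differed widely in how many of the genes they held. At 10 CPM or more, 9 RFP cells held none, 13 held 1, 8 held 2, 7 held 3, 9 held 4, 5 held 5, 3 held 6 and 1 held 7, with a median of 2. No cell held 8 or all 9. The cell with 7, number 37, lacked Zic2 and Sox3 at this level. Cells 9, 45 and 52, with 6 each, shared Otx2, Sox4, Zic5, Fgf5 and Pou3f1. Of the 18 cells with 4 or more, all 18 held Otx2, 17 held Sox4, 13 Zic5, 11 Fgf5, 11 Lef1 and 9 Pou3f1. Among all 55 RFP cells these genes were in 31, 29, 20, 12, 23 and 12, in the same order. The 18 cells were picked by how many of these genes they hold, so higher shares among them follow from the choice. At 1 CPM the median was 3, the highest was 9 and 4 cells held none.

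**Figure D3:**
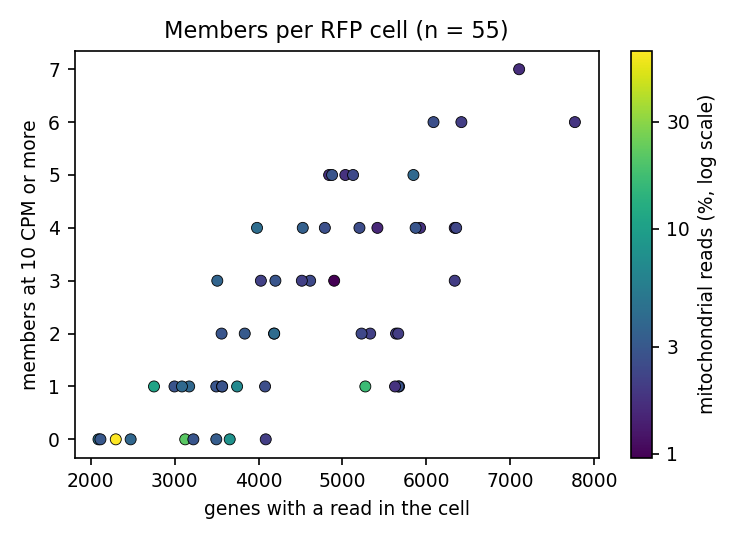
Number of the 9 genes at 10 CPM or more (vertical axis) against the number of genes with a read (horizontal axis) in each of 55 RFP cells, coloured by the share of mitochondrial reads on a log scale. Cells with 6 or 7 of the genes had 6084 to 7768 detected genes, and cells with none had 2094 to 4086.

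The number of members in a cell moved with the number of genes detected in it, with a Spearman rho of 0.71 over the 55 cells. With total reads rho was 0.12, and with the mitochondrial share -0.48. Each member alone had a rho with detected genes of 0.18 (Zic2) to 0.49 (Otx2). How much of the co-expression below comes with detection was examined by regressing the number of detected genes out of the ranks, an alternative chosen after seeing the data.

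Co-expression was described by Spearman rho of CPM over the 55 RFP cells, which share library preparation and differ in depth and in genes detected. The 36 pairs ran from -0.14 to 0.48 with a median of 0.18, and 11 reached 0.3. The highest involved Otx2: 0.48 with Zic5, 0.47 with Fgf5 and 0.43 with Pou3f1. Fgf5 followed with 0.39 to Zic5 and 0.38 to Pou3f1. The lowest pair was Sox4 and Lef1 at -0.14, the one pair below 0.

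**Figure D4:**
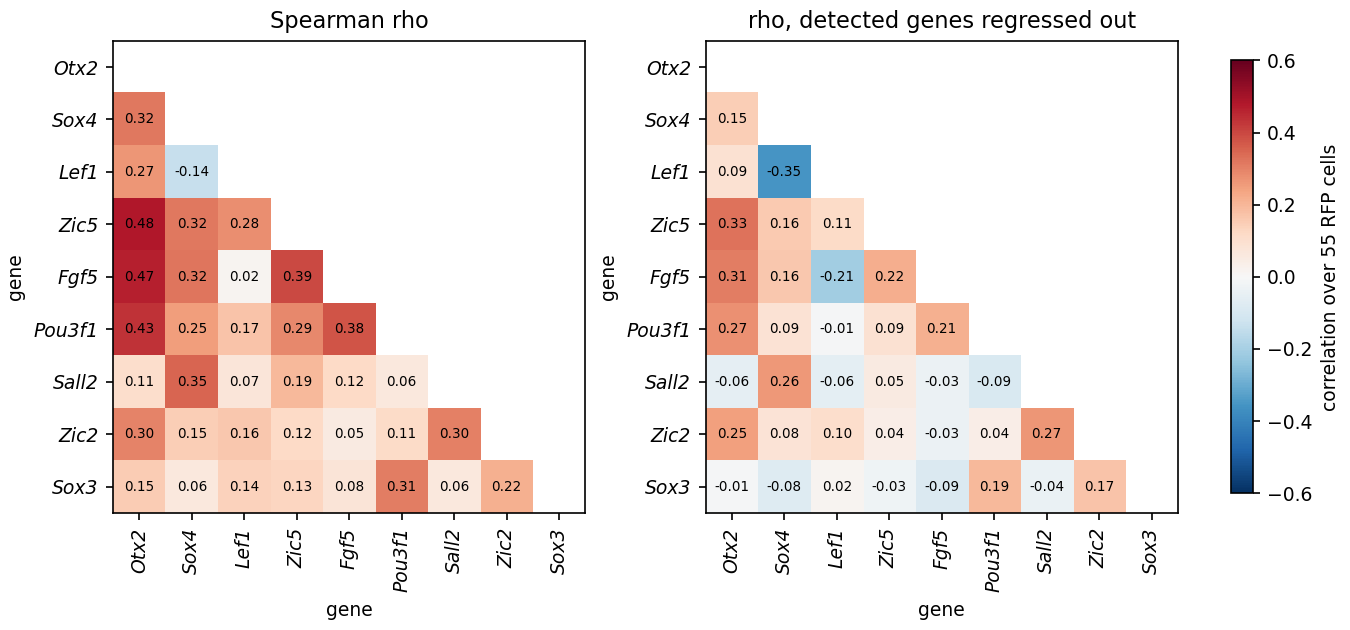
Spearman correlation of each pair of genes over the 55 RFP cells, as measured (left) and after the number of detected genes was regressed out of the ranks (right), red for positive and blue for negative. The median of the 36 pairs is 0.18 at left and 0.08 at right, and Otx2 with Zic5 and with Fgf5 are the pairs that still reach 0.3.

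With detected genes regressed out, the median fell to 0.08 and the range was -0.35 to 0.33. Otx2 with Zic5 (0.33) and Otx2 with Fgf5 (0.31) were the pairs that still reached 0.3. Sox4 and Lef1 moved to -0.35, and Lef1 and Fgf5 from 0.02 to -0.21. In sparse counts such as those of Sall2, Zic2 and Sox3 a weak correlation says little.

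Presence in the same cell was also counted, with no adjustment for the number of detected genes. Of the 12 cells with Fgf5 at 10 CPM, 11 also held Otx2 and 11 held Sox4, whereas these genes were in 56.4% and 52.7% of all RFP cells. Lef1 was in 4 of the 12 Fgf5 cells (33.3%), against 41.8% of all RFP cells. Zic5 was in 9 of the 12 (75%), against 36.4%. Of 20 cells with Zic5, 17 held Otx2. Of 12 cells with Pou3f1, 10 held Otx2 and 6 held Fgf5. All 4 cells with Sall2 held both Otx2 and Sox4. Sox4 and Lef1 were together in 12 cells, which is 41.4% of the Sox4 cells and 52.2% of the Lef1 cells, close to their shares among all RFP cells.

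For the 4 members present in at least 30% of RFP cells, the 3 genes with the most alike pattern were taken from 4206 genes present as often. Otx2 was most like Ipo5 (0.69), Znrd1 (0.60) and Zfp534 (0.59). Sox4 was most like Sptbn1 (0.60), Cnot1 (0.54) and Khdrbs1 (0.54). Lef1 was most like Idh2 (0.60), Dcun1d5 (0.60) and Lsm1 (0.56). Zic5 was most like Wasl (0.72), Prpf3 (0.61) and Slc7a3 (0.57). A rho of 0.3 or more was common, at 23% of these genes for Otx2, 10.4% for Sox4, 15.7% for Lef1 and 17.3% for Zic5. None of these 4 members was among the 3 nearest of another. The remaining members were present in under 30% of RFP cells, so they could not be listed.

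Against naive pluripotency genes the picture was mixed. Dppa3 (Stella), an early epiblast and germ cell gene, had a rho of -0.43 with Lef1, the lowest of all 4206 genes for Lef1, and -0.40 with Otx2. It was -0.21 with Zic5 and -0.15 with Sox4. Fgf4, itself counted as naive, had a rho of 0.36 with Otx2 and -0.11 with Lef1. Nr0b1 had 0.37 with Lef1 and -0.27 with Sox4. Klf5 had 0.35 with Zic5, 0.29 with Otx2, 0.18 with Lef1 and 0.16 with Sox4. These are descriptions over the same 55 cells, with no adjustment for the number of detected genes.

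Other genes of the same stage were placed beside the 9. Over all genes, 25% were at least 1 higher in RFP cells and 21.9% at least 1 lower. Of 29 further formative and primed genes, 20 were at least 1 higher in RFP cells and 1, Cd59a, at least 1 lower, with a median log2 ratio of 2.37. The most abundant in RFP cells were Tdgf1 (1388 CPM against 2.32 in GFP cells), the Nodal co-receptor, and the de novo DNA methyltransferases Dnmt3b (432 against 88.8) and Dnmt3a (399 against 34). Tdgf1 was in 52 of 55 RFP cells at 10 CPM, more than any of the 9. Of 20 naive genes, 6 were at least 1 higher and 7 at least 1 lower, with a median of 0.11. Dppa5a (7126 CPM in RFP and 4943 in GFP cells), Dppa4 (648 and 275) and Fgf4 (516 and 3.57) led that list. Of 6 core genes, 4 were at least 1 higher. Nanog was not among them, at 19.1 CPM in RFP and 26.8 in GFP cells, a log2 ratio of -0.47. The most abundant of the 6 in RFP cells were Sall4 (629 and 306 CPM), Zfp281 (98.6 and 56.5, a log2 ratio of 0.79) and Pou5f1 (49.6 and 15).

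Later fates that the 9 genes also serve were little seen. The shares of all genes at least 1 higher and at least 1 lower in RFP cells were 25% and 21.9%. Of 12 early neural genes 8 were measured and 1, the tubulin gene Tubb3, was at least 1 higher, at 17.3 CPM in RFP cells. It was followed by Nes at 4.14 and Sox21 at 0.707 CPM. Of 10 mesendoderm genes of the gastrula 4 were measured and 3 were at least 1 lower. Their most abundant, Eomes, which also marks trophectoderm, was at 1.69 CPM in RFP and 43 in GFP cells.

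Signalling partners were read from lists without the members. Beside them, 25% of all genes were at least 1 higher in RFP cells and 21.9% at least 1 lower. Of 22 FGF pathway genes, 10 were at least 1 higher and 4 at least 1 lower. Spry2, a feedback inhibitor, was at 818 CPM in RFP and 229 in GFP cells, and the ligand gene Fgf4 at 516 and 3.57. Of 13 measured Wnt targets and partners, 5 were at least 1 higher and 2 at least 1 lower. Among the 5, Lgr5 and Nkd1 were at only 1.76 and 1.63 CPM in RFP cells. Axin2 was at 1.02 CPM in RFP and 0.827 in GFP cells. Ctnnb1, which encodes beta-catenin, was at 259 and 223 CPM, Gsk3b, a kinase of its destruction complex, at 199.8 and 704, and the cyclin gene Ccnd1 at 89.4 and 1.23.

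Relatives of the 9 genes were measured for 16 of 23. Of these, 12 were at least 1 higher in RFP cells and none at least 1 lower, against 25% and 21.9% of all genes. Their median log2 ratio was 1.51. Among Sall genes, Sall1 stood at 71.0 CPM in RFP cells and 1.05 in GFP cells, Sall4 at 629 and 306, and Sall3 at 1.4 and 0. Sall1 was in 33 of the 55 RFP cells at 10 CPM. Among Sox genes, Sox11 stood at 51.8 CPM in RFP cells and 0.0179 in GFP cells, Sox2 at 48.7 and 15.5, Sox12 at 8.73 and 0.00895, and Sox1 at 0.0193 and 0. Among the partners of beta-catenin that resemble Lef1, Tcf7l1 stood at 32.4 and 1.42 CPM, Tcf7 at 18 and 0.206, and Tcf7l2 at 12.4 and 8.44. Among POU genes, Pou2f1 stood at 43.9 and 15.6 CPM, Pou2f3 at 1.61 and 0.00447, and Pou3f3 at 0 and 0.0358. Fgf4 is given above, and Fgf6 stood at 0.540 and 0 CPM.

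Markers of other cells that could be among the RFP cells were read in the same way, beside 25% of all genes at least 1 higher. Of the feeder fibroblast list 5 of 12 were measured and 2, Vim and Dcn, were at least 1 higher in RFP cells, with a summed median of 0 in both groups and a highest RFP cell at 197 CPM. Vim, which other cell types also express, stood at 22.8 CPM in RFP and 5.72 in GFP cells, Dcn at 2.17 and 0.00895 CPM, and the collagen gene Col1a2 at 0.604 and 0 CPM. Dcn was at 10 CPM or more in 3 RFP cells. Of the oocyte list 4 of 9 were measured and 2, Zp3 and Zp2, were at least 1 higher, with a summed median of 0 in both groups and a highest RFP cell at 218 CPM. Zp3 stood at 9.51 CPM in RFP and 0 in GFP cells, Zp1 at 1.21 and 0.242, and Zp2 at 1.02 and 0. Their part in the results was not tested.

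Methylation around the starts was read as methylated calls over all calls in the 200 bp windows that lie wholly within 2 kb of the start and have calls in all 3 libraries. Start positions were given for 6 of the 9 genes. Each start had 617 to 2389 calls per library, and intervals are 95% Wilson intervals for counting error. Over the 6 starts the median was 17.6% for MEF, 15.8% for the Gjb2-35delG line and 6.82% for the Actin-RFP line. The same medians over all genes were 59.9%, 47.8% and 23.8%. None of the 6 was at least 30 percentage points lower in Gjb2-35delG ESCs than in MEF, against 5.37% of 25967 genes, and none in Actin-RFP ESCs, against 50.3%. Only the Sall2 start, at 42.3%, was above 30% in MEF, so no other start could fall by 30 points. The comparison with all genes therefore says little about these starts.

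Otx2 had little methylation in any library: 6.80% of calls in MEF (5.60% to 8.23%), 5.92% in the Gjb2-35delG line and 4.76% in the Actin-RFP line. None of its 16 windows exceeded 21.4% in any library. The main Lef1 start was alike in the windows it had, at 5.91%, 6.35% and 4.75%, over 11 windows. None of these lay between the windows centred at -596 and 804 bp, so the Lef1 promoter itself was not read. Lef1 has an inner start at 131156294 on chromosome 3, with the CTTTGA copies, and there the values were 64.3%, 60.1% and 41.8%.

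**Figure D5:**
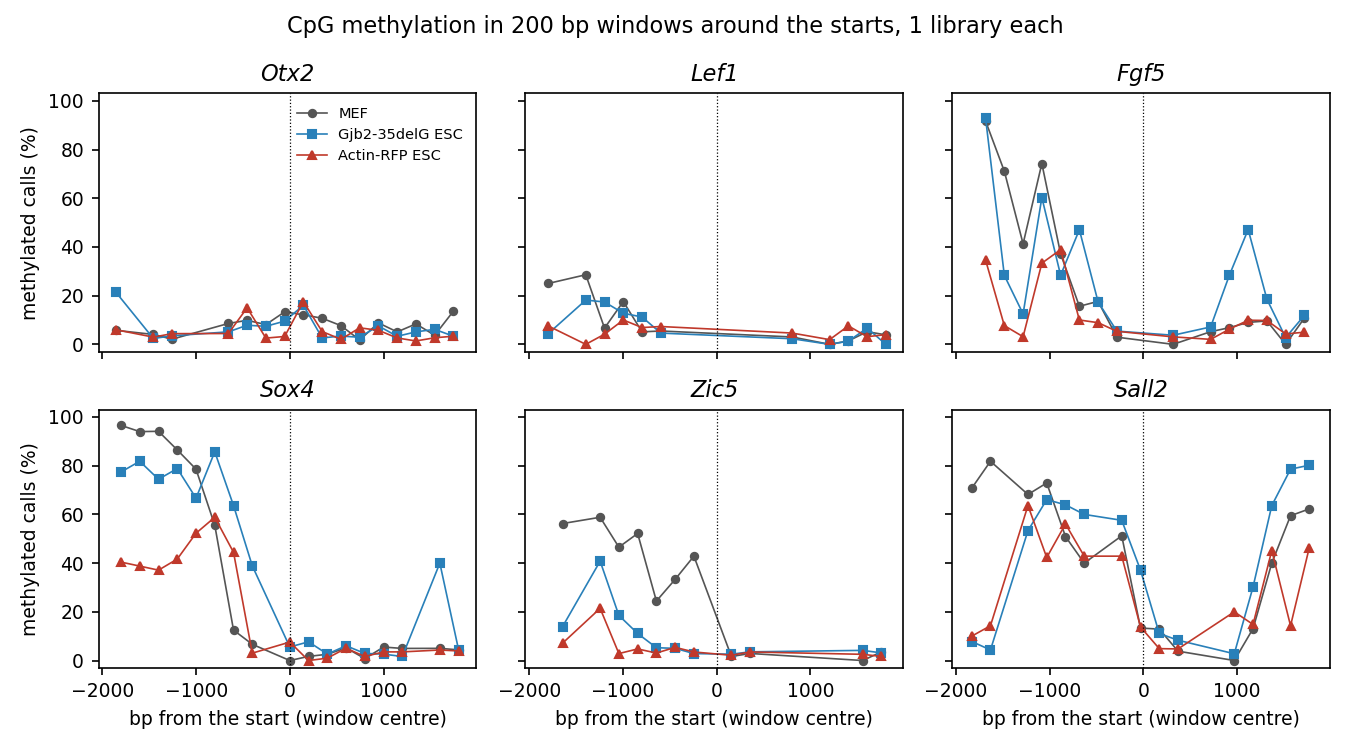
Share of methylated calls in each 200 bp window by distance of its centre from the start (negative is upstream), for MEF, the Gjb2-35delG line and the Actin-RFP line, 1 library each. Otx2 and Lef1 stay below 30% in every window shown, Zic5 is above 20% upstream in MEF, and Fgf5, Sox4 and Sall2 have methylated flanks. Lef1 has no window between those centred at -596 and 804 bp.

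Zic5 differed between libraries on its upstream side. Within 2 kb it was at 18.7% in MEF (16% to 21.6%), 9.86% in the Gjb2-35delG line (8.13% to 11.9%) and 3.80% in the Actin-RFP line (2.80% to 5.13%). The 7 windows centred from -1643 to -243 bp were at 24.4% to 58.8% in MEF and at 2.86% to 21.4% in Actin-RFP ESCs. In Gjb2-35delG ESCs 6 of the 7 were at 2.86% to 18.5% and the one at -1243 bp was at 40.8%. Downstream of the start all 3 libraries were at 4.17% or less. The window nearest the printed Zic5 promoter, at -243 bp, had 14 calls in MEF, 35 and 57 in the ESC libraries.

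Sall2 was the most methylated of the 6 starts. At its outer start, whose printed stretch has no CG, the region was at 42.3% in MEF, 44.2% in the Gjb2-35delG line and 29.5% in the Actin-RFP line. At the inner start the values were 55.8% (52.4% to 59.1%), 16.6% (14.1% to 19.3%) and 8.0% (6.47% to 9.86%). The inner start was thus lower in both ESC libraries than in MEF by over 30 points, where the outer one was not. This start was singled out after its values were seen.

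Fgf5 and Sox4 shared low windows near the start and a methylated upstream flank. Fgf5 had no window between those centred at -283 and 317 bp, so most of its printed stretch was not read. Fgf5 was at 22.7% in MEF, 26.4% in the Gjb2-35delG line and 9.08% in the Actin-RFP line within 2 kb, and at 2.94%, 5.43% and 5.35% in the window at -283 bp. Its window at -1683 bp was at 91.7%, 92.9% and 34.6%. Downstream, its windows at 917 and 1117 bp were higher in the Gjb2-35delG line, at 28.4% and 47.1%, than in MEF, at 6.85% and 9.01%, or the Actin-RFP line, at 6.25% and 9.90%. Sox4 was at 16.6%, 21.8% and 8.87% within 2 kb. Its window at -1402 bp was at 94.1%, 74.4% and 37.1%, and the one at -2 bp at 0%, 5.56% and 7.58%.

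How the libraries differed depended on the distance from the start. Within 1 kb of the start the median difference over the 6 starts was 0.989 points in Actin-RFP ESCs, compared with -10.3 points within 2 kb, so its sign depends on the window. In Gjb2-35delG ESCs it was 1.32 and 1.17 points. Within 1 kb, Zic5 alone was over 10 points lower in either ESC line, at 20.2% in MEF, 5.15% in the Gjb2-35delG line and 3.53% in the Actin-RFP line. The outer Sall2 start was higher there in the Gjb2-35delG line, at 43.6% against 28.5% in MEF and 30.2% in the Actin-RFP line, and within 500 bp it was at 35.4%, 20.1% and 20%.

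For Pou3f1, Zic2 and Sox3, which strand they lie on was not given, so both ends of the gene are described. The less methylated end of Pou3f1 (chromosome 4, 124657646) was at 5.50%, 10.1% and 4.98%, and the other at 41.2%, 37.1% and 24.6%, in the same order of libraries. Zic2 was at 4.14%, 3.43% and 3.57% at the end nearer to Zic5 and 14.7%, 11.5% and 7.73% at the other. Sox3, on the X chromosome, had calls in 4 windows at one end, with 22.8%, 20.2% and 1.52%, and the last rests on 66 calls. Its other end had 1 window with only 10, 20 and 5 calls, at 10%, 0% and 0%, and was thus hardly measured. X chromosome calls made up 2.67% of all calls in MEF, 1.43% in the Gjb2-35delG line and 1.56% in the Actin-RFP line. The part of X chromosome number in the Sox3 values was not tested.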

How the data were processed

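Single cells were picked, and their full-length cDNA was amplified and sequenced as 150 bp paired-end reads, per the labels' protocols. Per the submitters' processing notes, which give neither role nor order, the build was mm10 and the tools included STAR 2.7.3a, featureCounts 2.0.0, DESeq2 1.30.0 and fastp 0.20.0. The expression table holds a signal: gene counts that the authors divided by one factor per cell before they deposited them. Dividing by the step of each cell gave whole reads for 100% of values within 0.01. No molecular identifiers were used, so reads are not independent molecules. Every count of a member in a GFP cell was even, so both ends of a read pair may have been counted. Poisson intervals would then be too narrow even for counting error, which was not tested. Of 13927 genes, 13922 matched a symbol and 5 did not, and the filter that left these genes was not given in the sources used here.

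No filter removed any of the 95 cells, and CPM was the share of a cell's or group's reads. Cells were picked one by one into tubes, per the labels, and no doublet caller was run, so tubes with more than 1 cell were not identified. A count model was not fitted, because each group is 1 sample. Called means a log2 ratio of at least 1 on CPM + 1, with no test.

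Of the bisulfite libraries, the authors deposited a methylation fraction and counts of methylated and unmethylated calls per 200 bp window. The aligner was not given in the sources used here, nor was the program that called methylation. Positions of starts and genes are from RefSeq on GRCm38.p6, the assembly behind mm10. A gene entered the background with at least 5 windows.

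The 9 genes, the gene lists and the rules were chosen with earlier results of these data known. Named besides the 9 are the 3 genes of each context list with the highest RFP level, all measured relatives, and the 3 genes most alike to each member present in at least 30% of RFP cells, predicted genes left out. Some genes that this rule names are not reported here. Genes named outside this rule (Cd59a, Nanog, Lgr5, Nkd1, Axin2, naive genes set against members) were chosen after their values were seen. Python 3.11.15, numpy 2.4.6, scipy 1.17.1, pandas 2.3.3 and matplotlib 3.10.9 were used, and the scripts were tested on simulated data.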

Additional observations from a re-analysis of the deposited data

How the results depend on the processing

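No paired analysis was possible because cell numbers only name cells and no label ties a GFP cell to an RFP cell, so no replicate block could be fitted. The share order per kb of transcript was not run, since no transcript length was given. The count of genes at least 1 higher was 6 to 9 under the alternatives tried and 8 as reported. Against MEF, the median methylation difference over the starts was 1.17 points in Gjb2-35delG ESCs, and -1.13 with the mean of the deposited fraction, -6.24 within 5 kb and -8.05 at the other end of the gene. In Actin-RFP ESCs it was -10.3 points, and 0.989 within 1 kb, -0.13 within 500 bp, -16 within 5 kb, -13.3 with the mean of the deposited fraction and -31.9 at the other end of the gene. The width of the window sets how much methylated flank is included. At 500 bp, 5 of the 6 starts had windows to count, all but Lef1. Few cells carry the levels of Sall2 and Sox3, and Zic2 lay below 10 CPM in most of the cells that had a read.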
